A study of Homo sapiens with 5 samples.

Results

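The 10 genes described here encode the core of the spindle assembly checkpoint, the Aurora kinases and 2 subunits of the chromosomal passenger complex. They were chosen by symbol from known function, with earlier results of these data known. Counts of them below are therefore a description and no independent test. All 10 were found among the 26485 genes of the count table and passed the filter on low counts, which kept 14187 genes. The libraries came from RPE1 cells, an established and telomerase-immortalized line of human retinal pigment epithelial cells that the labels call wild type. Of the 5 RNA-seq libraries, 2 came from cells given DMSO, the solvent of the drug, 2 from the dose of 0.2 μM doxorubicin and 1 from 0.34 μM, each after 18 h. These doses are those of the sample titles, while the label on the treatment gives both with larger figures. All groups share the cell line and the solvent, and the methods call the libraries biological replicates. Doxorubicin is an anthracycline that inserts between DNA bases and traps topoisomerase II on DNA.

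During mitosis the spindle assembly checkpoint holds back anaphase until every kinetochore is attached to microtubules. The kinases TTK and BUB1 act at unattached kinetochores, where MAD1 and MAD2 (genes MAD1L1 and MAD2L1) start the assembly of an inhibitor that also contains BUBR1 (gene BUB1B) and BUB3 and that restrains the anaphase-promoting complex. Aurora A (AURKA) builds the spindle poles, and Aurora B (AURKB) with INCENP and survivin (BIRC5) corrects wrong attachments. Most of these mRNAs are known to be made mainly in late S phase, G2 and mitosis, and their genes are known targets of the MuvB complexes, which bind a promoter element called CHR.

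The counts on genes summed to between 23773061 and 36725345 per library, and the members had between 113 and 7766 counts in a library. CDKN1A, the p53 target that encodes the inhibitor p21 and was looked up as a check of the treatment, was at 295 and 258 CPM (counts scaled to the size of the library, TMM-normalized) in DMSO and at 2975, 2366 and 3358 in doxorubicin. Of the defining markers of retinal pigment epithelium, MITF (29.1 to 56.7 CPM) and OTX2 (23.5 to 29.4) were expressed, whereas RPE65, RLBP1, TYR and TYRP1 did not exceed 0.305 CPM in any library, and BEST1 and PMEL lay between 0.196 and 3.91. The epithelial keratins KRT8 and KRT18 were expressed and CDH1 and EPCAM were at 0.155 CPM or less. Of the retinal and epithelial markers tested, KRT8, KRT18, BEST1 and PMEL were higher in all doxorubicin libraries than in DMSO without passing 0.01. Their log2 fold changes were 0.87, 0.63, 1.88 and 2.29 (edgeR adjusted p = 0.0133, 0.136, 0.0823 and 0.0264). Of the matrix genes, COL1A1 set replicate 1 apart from replicate 2, with 287 and 64.5 CPM in DMSO and 189 and 42.7 at 0.2 μM, and FN1 did so in the same direction. Of markers of other cells, PTPRC, the 1 leukocyte gene looked up, was at 0.191 and 0.274 CPM in DMSO and at 0.967, 2.20 and 1.98 in doxorubicin (log2 fold change 2.86, standard error 0.56, edgeR adjusted p = 0.0212), and the endothelial genes PECAM1 and VWF did not exceed 0.661 CPM. Their part in the results was not tested.

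To relate the expression data to sequence, the promoter windows of RefSeq (build GRCh38.p14, 250 bases before the start site and 50 from it on) were searched on both strands for the CHR motif (TTTGAA or TTTAAA), for CCAAT, and for the E2F motifs TTTGGCGC, TTTCCCGC, TTTCGCGC and TTTGCCGC. Windows were at hand for 6 of the 10 genes, and those of BUB3, TTK, AURKA and BIRC5 were not analysed here. A CHR motif was present in the windows of BUB1B, INCENP and MAD2L1, in each case as TTTGAA on the strand of the gene, and CHR motifs occur in 24% of all 35116 windows. A CCAAT motif was present in 4 genes (BUB1, MAD2L1, INCENP and AURKB), against 34.6% of all windows. None of the 6 genes had an E2F motif of these spellings, which 3.31% of all windows have. No matches overlapped each other. The 250 bases before the start site are shown for 4 genes, since BUB1B and INCENP have the CHR motif close to the start, BUB1 has a pair of CCAAT motifs, and MAD1L1 has none of the motifs and is the uncalled member with a window. BUB3, the other uncalled member, has no window here. Among the called members, BUB1 and AURKB have no CHR motif in their windows and BUB1B has no CCAAT motif. How the motifs relate to the falls was not tested. They are written in the direction of the gene, with matches in capitals (ATTGG is CCAAT on the opposite strand). The windows are chr15:40160819-40161068 (plus strand) for BUB1B, chr11:62123761-62124010 (plus strand) for INCENP, chr2:110678064-110678313 (minus strand) for BUB1 and chr7:2232946-2233195 (minus strand) for MAD1L1.
BUB1B: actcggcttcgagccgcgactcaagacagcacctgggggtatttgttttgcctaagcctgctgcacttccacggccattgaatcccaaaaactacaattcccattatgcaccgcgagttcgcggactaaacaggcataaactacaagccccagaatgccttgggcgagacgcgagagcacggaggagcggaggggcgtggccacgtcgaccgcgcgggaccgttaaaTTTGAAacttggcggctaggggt
INCENP: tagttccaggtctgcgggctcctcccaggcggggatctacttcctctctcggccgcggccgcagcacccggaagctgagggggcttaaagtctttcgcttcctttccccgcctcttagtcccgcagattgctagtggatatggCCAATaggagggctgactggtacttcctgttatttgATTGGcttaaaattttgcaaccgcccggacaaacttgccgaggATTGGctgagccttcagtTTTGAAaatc
BUB1: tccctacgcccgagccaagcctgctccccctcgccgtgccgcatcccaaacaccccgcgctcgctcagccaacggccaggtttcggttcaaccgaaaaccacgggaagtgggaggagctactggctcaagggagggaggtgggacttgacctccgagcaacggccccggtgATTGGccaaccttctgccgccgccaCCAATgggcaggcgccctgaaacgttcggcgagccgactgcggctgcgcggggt
MAD1L1: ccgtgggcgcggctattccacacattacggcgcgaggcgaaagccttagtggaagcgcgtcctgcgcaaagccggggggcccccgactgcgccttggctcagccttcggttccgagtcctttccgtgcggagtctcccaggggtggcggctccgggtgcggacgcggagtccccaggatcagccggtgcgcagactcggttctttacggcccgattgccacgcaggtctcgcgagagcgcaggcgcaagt

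The CHR match began 23 bases before the start site in BUB1B and 10 bases before it in INCENP, and in MAD2L1 it lay 24 bases after it. In INCENP, CCAAT matches began 107, 71 and 28 bases before the start, and in BUB1 79 and 54 bases before it. In MAD2L1 the CCAAT match began 229 bases before the start, and AURKB, with windows for 2 starts, had its CCAAT match 153 or 129 bases before them. Both starts lie inside the RefSeq gene, and its outer end at 8210575 had no window here. These matches describe letters in the window and are not measured binding sites.

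**Figure D1:**
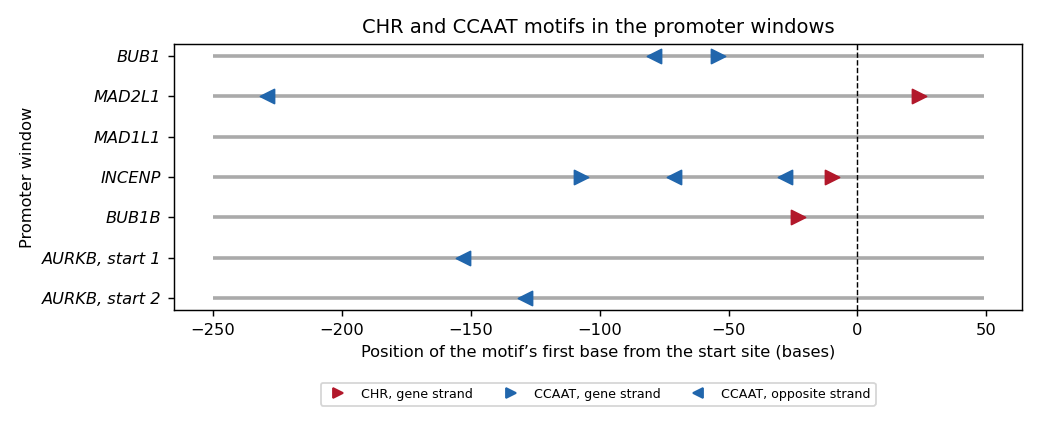
Position of CHR (red) and CCAAT (blue) motifs in the promoter windows of 6 genes, in bases from the start site at 0 (dashed line), with arrowheads pointing right for the strand of the gene and left for the opposite strand. BUB1B and INCENP have a CHR motif 23 and 10 bases before the start, and MAD1L1 has no motif.

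After doxorubicin, the mRNAs of 8 of the 10 genes fell to between 4.53% and 16.0% of their mean level in DMSO, and those of BUB3 and MAD1L1 did not pass the test. The 8 genes were BUB1, BUB1B, BIRC5, AURKA, TTK, AURKB, INCENP and MAD2L1, all of which passed an adjusted p of 0.01 (edgeR's quasi-likelihood test over all 14187 genes, 3 doxorubicin against 2 DMSO libraries), whereas 2.73% of all genes tested were called lower. The median log2 fold change was -3.35 over the members and 0.013 over all genes tested. In 9 of the 10 genes every doxorubicin library was lower than either control library, which held for 23.4% of the tested genes. From bulk RNA alone, fewer cells in a cell cycle phase and less mRNA per cell cannot be told apart. By flow cytometry, the paper reports a larger share of cells at G2/M with doxorubicin than in the control. How the shares of the phases relate to the falls of these mRNAs was not tested.

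**Figure D2:**
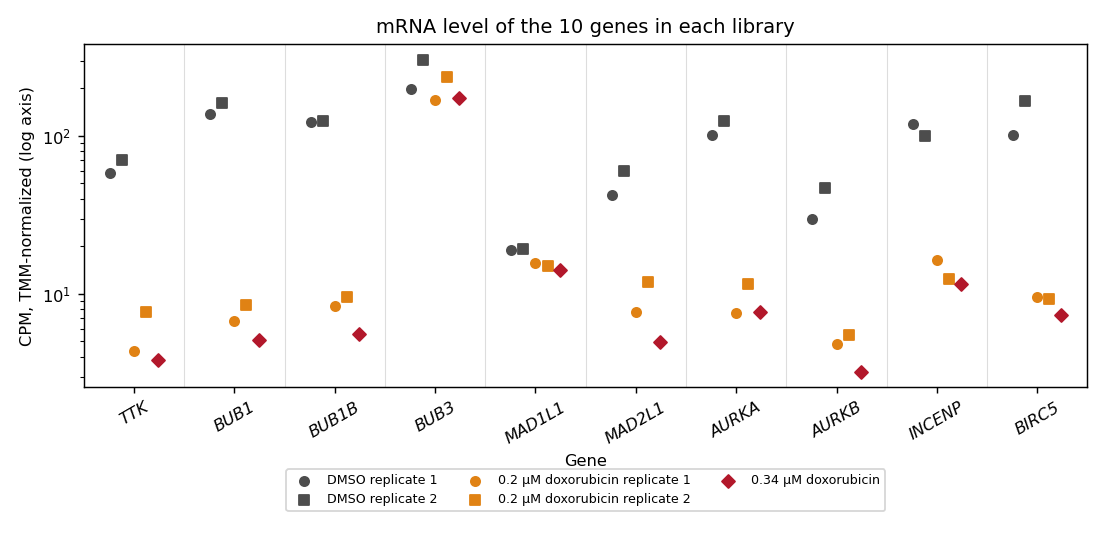
TMM-normalized CPM (log axis) of each of the 10 genes in the 2 DMSO libraries (grey), the 2 libraries of 0.2 μM doxorubicin (orange) and the library of 0.34 μM doxorubicin (red), 1 point per library. In 8 genes the doxorubicin libraries lie far below both DMSO libraries, in MAD1L1 they lie slightly below, and in BUB3 the groups overlap.

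Among the kinetochore kinases, BUB1 (chromosome 2 of GRCh38, 110637528 to 110678063), which recruits checkpoint proteins and marks the centromere for the passenger complex, had 138 and 163 CPM in DMSO, 6.73 and 8.52 at 0.2 μM and 5.13 at 0.34 μM. Its groups were far apart, and its fall was the largest of the 10 (log2 fold change -4.47, standard error 0.24, edgeR adjusted p = 0.000691), with only 7 of the genes tested falling further. Its mean was 150.0 ± 17.8 CPM (SD, n = 2) in DMSO against 6.79 ± 1.70 (SD, n = 3) with the drug, a 22.2-fold decrease. TTK (chromosome 6, 80004649 to 80042527), the kinase also known as MPS1 that starts checkpoint signalling, had 58.1 and 70.0 CPM in DMSO, 4.37 and 7.69 at 0.2 μM and 3.83 at 0.34 μM. Its log2 fold change was -3.60 (standard error 0.32, edgeR adjusted p = 0.00157), and it fell without overlap of the groups.

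In the inhibitory complex, BUB1B (chromosome 15, 40161069 to 40221123) had 122 and 124 CPM in DMSO, 8.43 and 9.52 at 0.2 μM and 5.54 at 0.34 μM. The DMSO libraries were almost equal, and the log2 fold change was -3.98 (standard error 0.25, edgeR adjusted p = 0.000694). BUB1B encodes BUBR1, which blocks the activator of the anaphase-promoting complex. BUB3 (chromosome 10, 123154402 to 123170467), whose WD-repeat protein binds both BUB1 and BUBR1, had 198 and 304 CPM in DMSO, 170 and 235 at 0.2 μM and 173 at 0.34 μM. The groups overlapped, and the difference was within the spread between replicates (log2 fold change -0.38, standard error 0.24, edgeR adjusted p = 0.334). Without DMSO replicate 2, which had the highest level, its log2 fold change was -0.057.

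MAD1L1 (chromosome 7, 1815795 to 2232945), the kinetochore receptor of MAD2, had 19.0 and 19.3 CPM in DMSO, 15.6 and 15.1 at 0.2 μM and 14.2 at 0.34 μM. Its groups did not overlap, but the difference was small and did not pass the test (log2 fold change -0.35, standard error 0.16, edgeR adjusted p = 0.197). MAD2L1 (chromosome 4, 120055623 to 120066848), whose protein changes shape on MAD1 and then inhibits the anaphase-promoting complex, had 42.6 and 59.7 CPM in DMSO, 7.70 and 11.9 at 0.2 μM and 4.93 at 0.34 μM. It fell least among the called genes and had the widest relative spread within doxorubicin (log2 fold change -2.65, standard error 0.36, edgeR adjusted p = 0.00669). Its call was lost with any of the libraries left out, with adjusted p-values between 0.0106 and 0.0356 from edgeR.

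Both Aurora kinases fell. AURKA (chromosome 20, 56369390 to 56392215), the spindle pole kinase, had 101 and 125 CPM in DMSO, 7.54 and 11.6 at 0.2 μM and 7.66 at 0.34 μM, a log2 fold change of -3.66 (standard error 0.24, edgeR adjusted p = 0.000748). AURKB (chromosome 17, 8204731 to 8210575), the centromeric kinase, had 29.7 and 47.0 CPM in DMSO, 4.83 and 5.49 at 0.2 μM and 3.22 at 0.34 μM, a log2 fold change of -3.09 (standard error 0.30, edgeR adjusted p = 0.00211). The DMSO libraries differed from each other more in AURKB than in AURKA, and in neither gene did the groups overlap.

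The other passenger subunits fell as well. BIRC5 (chromosome 17, 78214253 to 78225635) encodes survivin, which docks the complex on centromeric chromatin, and had 101 and 167 CPM in DMSO, 9.59 and 9.27 at 0.2 μM and 7.39 at 0.34 μM. Its log2 fold change was -3.94 (standard error 0.25, edgeR adjusted p = 0.000702), and its DMSO libraries differed by 0.71 on the log2 scale, the widest gap between them among the members. INCENP (chromosome 11, 62124011 to 62153169), the scaffold that activates Aurora B, had 118 and 99.2 CPM in DMSO, 16.3 and 12.4 at 0.2 μM and 11.5 at 0.34 μM. Its log2 fold change was -3.02 (standard error 0.20, edgeR adjusted p = 0.000748), and it was the only member with a lower level in DMSO replicate 2 than in replicate 1.

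RefSeq annotates no other gene over BUB3, MAD2L1, TTK, AURKA, AURKB, BIRC5 and INCENP. BUB1B overlaps LOC107984763 and the read-through gene BUB1B-PAK6, BUB1 overlaps SNORD132, and MAD1L1 overlaps 6 noncoding genes, so their counts could include other reads. Pseudogene copies of AURKA, AURKB, BUB1, BUB3 and MAD2L1 are annotated elsewhere, and the sources used here do not state how reads shared with them were counted.

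**Figure D3:**
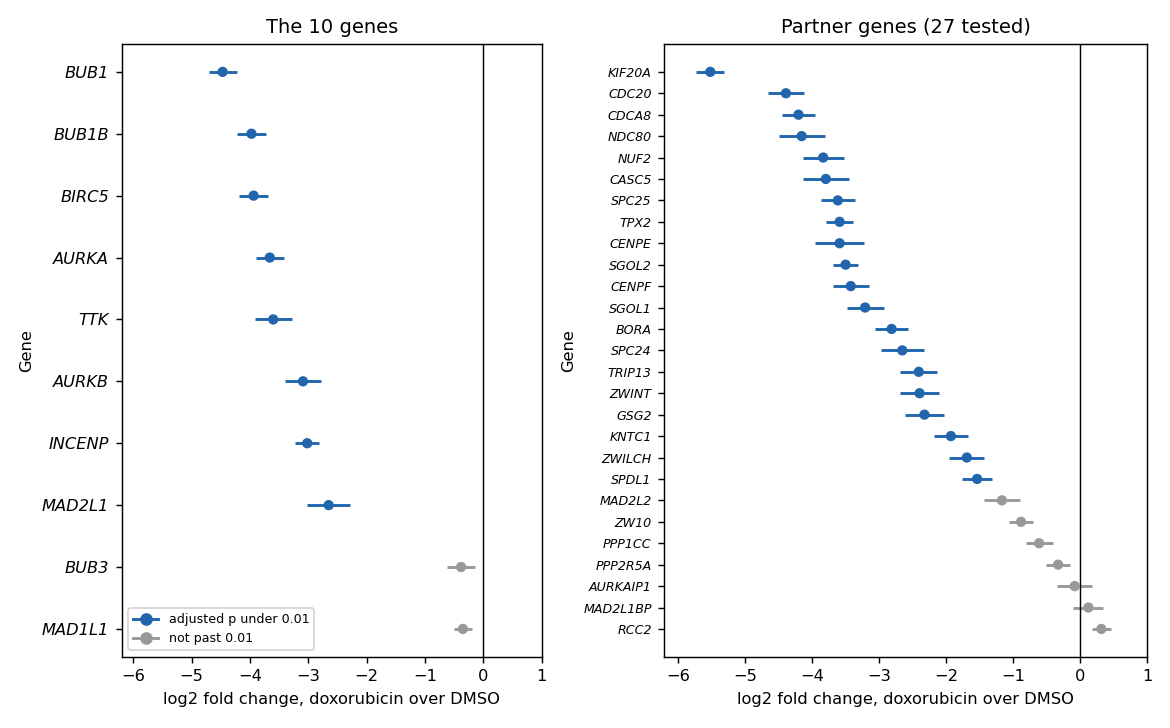
Log2 fold change of doxorubicin over DMSO with its standard error (horizontal lines) for the 10 genes (left) and 27 partner genes (right), from edgeR's fit to 3 doxorubicin and 2 DMSO libraries. Genes past an adjusted p of 0.01 are blue, and BUB3 and MAD1L1 are the only members that are grey.

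To compare levels between genes, CPM was divided by the length of the MANE Select transcript in kilobases (RPKM). In DMSO, AURKA had the highest level with 55.6 ± 8.39 RPKM (SD, n = 2), followed by BIRC5, BUB1, BUB1B, BUB3, AURKB, INCENP, TTK and MAD2L1, with MAD1L1 lowest at 7.09 ± 0.0818 RPKM. The ranges of the 2 libraries overlapped between AURKA and BIRC5, BIRC5 and BUB1, and between each neighbouring pair from BUB1B to INCENP. Within each library BIRC5 was still above BUB1 (39.41 against 36.54, and 64.67 against 43.22 RPKM). BUB3 was likewise above AURKB (25.65 against 23.91, and 39.49 against 37.81 RPKM). In the other overlapping pairs the order differed between the libraries. After doxorubicin, BUB3 was highest with up to 30.5 RPKM, above all other members in every library, and MAD1L1 rose in the order from the last place to the one after BUB3, with 5.57 ± 0.259 RPKM. MAD2L1 was then lowest with 1.56 ± 0.670 RPKM, and from MAD1L1 to INCENP and from BUB1B to MAD2L1 neighbours overlapped. The MANE transcripts of BUB3 (7703 bases) and MAD2L1 (5227 bases) are the longest of the 10, and the RPKM of these genes would be higher if shorter forms were the ones expressed.

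Whether members of one complex moved unequally was asked from the log2 ratio of pairs of genes within each library, in which the scaling of the library cancels. The log2 ratio of BUB1 to BUB3 was -0.52 and -0.90 in DMSO, -4.64 and -4.77 at 0.2 μM and -5.06 at 0.34 μM, so that BUB1 mRNA decreased 17.3-fold relative to BUB3. For BUB1B to BUB3 it was -0.70 and -1.30 in DMSO and -4.32, -4.61 and -4.95 in doxorubicin, a 12.4-fold decrease. For MAD2L1 to MAD1L1 it was 1.16 and 1.63 in DMSO and -1.01, -0.35 and -1.52 in doxorubicin, a 5.12-fold decrease. In these 3 pairs the groups did not overlap, with p = 0.1 in a two-sided exact permutation test, the smallest p that the 10 arrangements of 3 against 2 libraries allow, and 0.15 when adjusted over the 6 pairs. This exact test therefore cannot reach 0.05 with these libraries.

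Within the passenger complex the ratio of AURKB to INCENP differed by less than the spread between replicates (mean log2 ratio -1.53 ± 0.646 (SD, n = 2) in DMSO and -1.57 ± 0.356 (SD, n = 3) in doxorubicin, exact permutation p = 0.9). The ratio of BIRC5 to INCENP was 0.26 ± 0.684 (SD, n = 2) in DMSO and -0.60 ± 0.176 (SD, n = 3) in doxorubicin, and the groups did not overlap (exact permutation p = 0.1). Its difference of -0.87 became -1.35 when DMSO replicate 1 was left out and -0.38 when replicate 2 was, and so depended on the DMSO library used. The ratio of AURKB to AURKA was -1.76 and -1.41 in DMSO and -0.63, -1.07 and -1.23 in doxorubicin (exact permutation p = 0.2, or 0.24 adjusted over the 6 pairs). These groups did not overlap either, and the difference lay between 0.43 and 0.78 with each library left out.

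**Figure D4:**
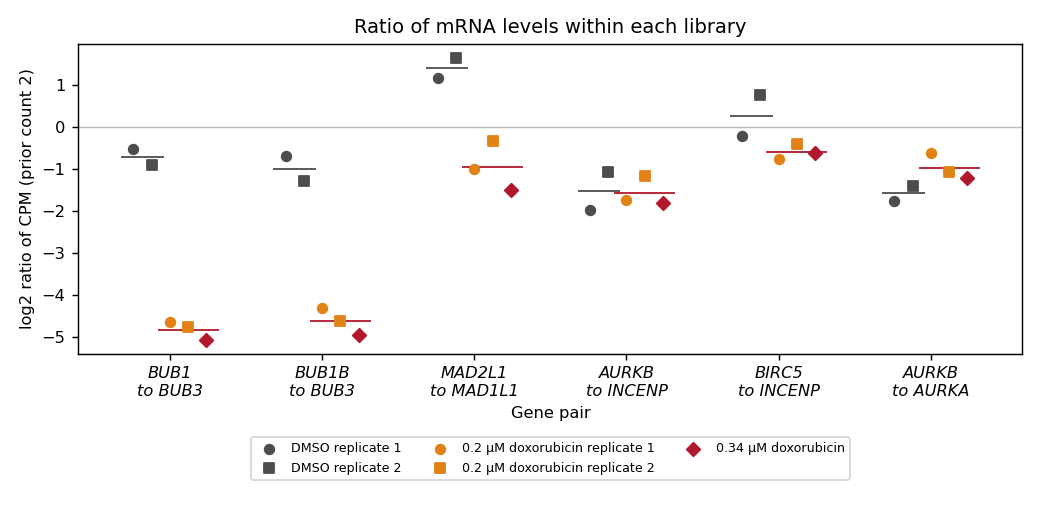
Log2 ratio of CPM (prior count 2) for 6 pairs of member genes in each library, with DMSO in grey, 0.2 μM doxorubicin in orange and 0.34 μM doxorubicin in red, and horizontal lines for the mean of the DMSO and of all doxorubicin libraries. The ratios of BUB1 and BUB1B to BUB3 lie between -0.52 and -1.30 in DMSO and at -4.32 or below in doxorubicin.

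The doses were also compared in a fit of 3 conditions, in which the lone 0.34 μM library is assumed to vary like the others and both doses share the DMSO libraries. Against DMSO, 7 members were called lower at 0.2 μM (0.93% of all genes tested) and 5 at 0.34 μM (0.472% of all genes tested). Those called at 0.34 μM were BUB1, BUB1B, BIRC5, AURKA and INCENP. The log2 fold change of BUB1 was -4.30 (standard error 0.26) at 0.2 μM and -4.87 (standard error 0.37) at 0.34 μM. That of MAD2L1, which was called at neither dose (edgeR adjusted p = 0.012 at 0.2 μM), was -2.39 (0.33) and -3.37 (0.46). All 10 log2 fold changes were more negative at 0.34 μM than at 0.2 μM, and all had larger standard errors there. The 0.34 μM library lay below both 0.2 μM libraries in 8 of the 10 genes, as in 28.9% of all genes tested, and the exceptions were BUB3 and AURKA. Between the doses, edgeR called 0 members and 0.0% of all genes at an adjusted p of 0.01. At an unadjusted p under 0.05 there were 2 members, MAD2L1 (log2 difference -0.99, standard error 0.40) and BUB1B (-0.70, standard error 0.28), and 22 genes in all. DESeq2 and limma voom also called 0 genes, with 2 and 0 members at an unadjusted p under 0.05. The fit does not show that the doses acted alike, since it rests on 1 library at 0.34 μM. In FN1 that library (19320 CPM) was near replicate 1 of DMSO and 0.2 μM (19190 and 19660), away from replicate 2 (9080 and 11510). In COL1A1 it was at 151 CPM, between 189 and 42.7 at 0.2 μM. Whether the lower member levels at 0.34 μM go with dose or with such a difference between replicates was not tested.

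The replicate libraries of 1 condition differed in a similar direction. Of the 10 genes, 9 were higher in DMSO replicate 2 than in replicate 1 and 7 were higher in replicate 2 of 0.2 μM doxorubicin than in its replicate 1, with the same sign in both pairs for 8 genes. The share of all tested genes that did so was not computed. Across all 14187 tested genes the deviations of replicate 1 from the group mean also correlated (r = 0.528). The shared direction is thus not shown to be particular to these genes. The gaps between the 0.2 μM libraries were widest for TTK (0.82 on the log2 scale), MAD2L1 (0.63) and AURKA (0.63). In comparison with the changes after doxorubicin these gaps were small for the 8 called genes, while for BUB3 the gap of 0.62 between the DMSO libraries was larger than its change.

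Leaving out DMSO replicate 2 lowered the number of called members from 8 to 4, with BUB1, BUB1B, BIRC5 and INCENP retained, while the number of all genes called in either direction went from 571 of 14187 to 49 of 14646. Without it the adjusted p-values from edgeR were 0.0153 for TTK, 0.0102 for AURKA, 0.0158 for AURKB and 0.0356 for MAD2L1, and AURKB also lost its call without replicate 2 of 0.2 μM (0.0118). The changes stayed large, with log2 fold changes over all libraries left out in turn between -3.96 and -3.41 for TTK, between -3.89 and -3.52 for AURKA, between -3.40 and -2.74 for AURKB and between -3.02 and -2.39 for MAD2L1. BUB1, BUB1B, BIRC5 and INCENP kept their calls with each library left out.

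**Figure D5:**
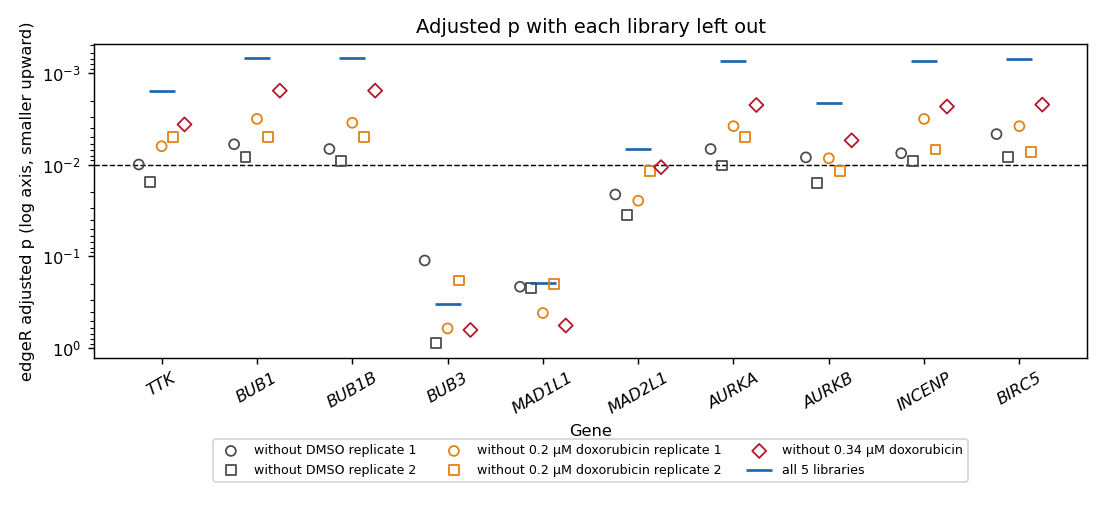
Adjusted p of edgeR's test (log axis, smaller values upward) for the 10 genes with all 5 libraries (blue dashes) and with each library left out (open symbols), and the threshold of 0.01 (dashed line). BUB1, BUB1B, BIRC5 and INCENP stay past the threshold throughout, and MAD2L1 passes it only with all 5 libraries.

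The genes that work with these members were followed in a list of 28 partner genes, also chosen with earlier results of these data known. Of these, 27 were tested and AURKC, a germ-line relative of the Aurora kinases, had too few counts (5 to 11 per library). In doxorubicin 20 partners were lower at an adjusted p of 0.01 and 0 higher, where 2.73% of all genes tested were called lower. Of the 27 log2 fold changes 25 were negative, and their median was -2.65, against 0.013 over all genes. The number called fell with each library left out, most without DMSO replicate 2, and so did the number of all genes called. With any 1 doxorubicin library left out, 13 partners were called. Of all genes tested, 178 to 207 were then called in either direction, against 571 with all 5 libraries. The largest falls were those of KIF20A, CDC20 and CDCA8. KIF20A, the kinesin that carries the passenger complex to the midzone, had 285 and 222 CPM in DMSO and 4.64, 5.70 and 6.23 in doxorubicin (log2 fold change -5.52, standard error 0.21, edgeR adjusted p = 0.000322). CDC20, the activator that the checkpoint inhibits, had 115 and 201 CPM in DMSO and 7.54, 8.57 and 6.56 in doxorubicin (log2 fold change -4.39). CDCA8 encodes borealin, the remaining passenger subunit, and had 60.8 and 85.5 CPM in DMSO and 4.80, 3.95 and 3.22 in doxorubicin (log2 fold change -4.20). At the other end were RCC2, MAD2L1BP and AURKAIP1, none of which passed the test. RCC2, which associates with the passenger complex, was at a log2 fold change of 0.32 (standard error 0.15, edgeR adjusted p = 0.197). MAD2L1BP, whose protein p31comet takes apart the MAD2 complexes, was at 0.12 (standard error 0.23, edgeR adjusted p = 0.755), and AURKAIP1 at -0.082 (standard error 0.26, edgeR adjusted p = 0.864).

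For each member, the gene with the most similar pattern was taken as the one with the smallest root mean square distance between log2 CPM profiles centred over the 5 libraries, among 11746 genes whose log2 CPM averaged 1 or more. The nearest genes were DLGAP5 for BUB1 (distance 0.121), CCNA2 for BUB1B (0.0988), SKA3 for TTK (0.0756), EXO1 for MAD2L1 (0.10), CDC25C for AURKA (0.0547), WDR62 for AURKB (0.109), CDCA3 for BIRC5 (0.0813) and GPSM2 for INCENP (0.0969). For BUB3 it was CASP6 (0.0266) and for MAD1L1 KIAA0368 (0.0240). These distances are a description of 5 libraries that share their groups.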

How the data were processed

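RNA-seq was analysed from the raw counts per gene that the authors deposited for 5 libraries of RPE1 cells. The authors selected poly-A RNA, aligned the reads to hg38 using STAR, and obtained counts per gene with featureCounts (Rsubread) on the iGenomes annotation. The kit marks strand, and for the strand option, multimapping reads and tool versions nothing is given in the sources used here. Not used was the authors' table of their own DESeq2 fold changes and p-values.

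The counts were tested in R 4.3.3 with edgeR 4.0.16 (quasi-likelihood test, TMM, minimum count of 10 and minimum total of 15), with the 3 doxorubicin libraries pooled against 2 DMSO libraries and Benjamini-Hochberg adjustment over 14187 of 26485 genes at 0.01. The standard error is |log2 fold change| over the root of the F statistic. Libraries of one group were not copies of each other (chi-square of 117 and 75.3 per degree of freedom). DESeq2 1.42.0, limma 3.58.1 voom, other size factors, no filter, an adjusted p of 0.05, 0.2 μM alone, a replicate block and each library left out were the alternatives. Ratios used log2 CPM with a prior count of 2 and exact permutation tests (scipy 1.17.1). The code was tested on simulated data. Lengths are those of MANE Select transcripts in GENCODE 44, and gene positions and promoters are those of RefSeq on GRCh38.p14. The members and gene lists were chosen with earlier results of these data known. All members are named, as are the 3 partners at either end and the nearest gene of each member.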

Additional observations from a re-analysis of the deposited data

How the results depend on the processing

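All 10 log2 fold changes of the members stayed negative under the 11 alternatives run for each. The number of called members was 8 with DESeq2, limma voom, other size factors, no filter, an adjusted p of 0.05 and the replicate block, 7 with 0.2 μM alone (in a fit of 3 conditions), and between 4 and 7 with each library left out. The number of called partner genes was 12 with 0.2 μM alone and between 5 and 13 with each library left out. Over all genes, 571 were called, against 2073 with DESeq2, 1020 with no filter, 171 with 0.2 μM alone and 49 (without DMSO replicate 2) to 215 with a library left out. Between the doses, 0 members were called under every alternative run. With each library left out, the difference between doxorubicin and DMSO in the log2 ratio of AURKB to INCENP lay between -0.50 and 0.42, so that it has no stable sign, while that of the other 5 pairs kept its sign, also with a prior count of 0.5. The cause of the lost calls was not tested.

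The replicate numbers of DMSO and 0.2 μM doxorubicin are not stated to mark a shared culture or day. The deviations of replicate 1 from the group mean correlated across 14187 genes (r = 0.528), as a description of these libraries. With the replicate block on these 4 libraries, 8 members and 1249 genes in all were called, against 7 members and 178 genes without the block.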

Other observations

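The partner genes were also read by the complexes to which their proteins belong, a grouping made after their values were seen and given without a test of its own. Over all genes tested, 2.73% were called lower in doxorubicin. All 4 subunits of the NDC80 complex, which binds microtubules at the kinetochore, fell, with log2 fold changes between -4.15 and -2.65. The RZZ complex and its dynein adaptor SPDL1 bring MAD1 and MAD2 to and from the kinetochore. Of these 4 genes 3 were called lower, and the log2 fold changes of the 4 lay between -1.93 and -0.88. ZWILCH passed the threshold narrowly (edgeR adjusted p = 0.00996). ZW10 was the one not called (edgeR adjusted p = 0.0246). It was still lower in every doxorubicin library, with 29.11 and 39.52 CPM in DMSO and 18.95, 18.67 and 18.24 in doxorubicin. Both shugoshins, SGOL1 and SGOL2, fell, and so did TPX2, BORA, GSG2 (Haspin) and CDCA8, which activate Aurora kinases or bring them to their sites. Among 4 genes that act in silencing the checkpoint, TRIP13 fell with a log2 fold change of -2.41 and MAD2L1BP, PPP1CC and PPP2R5A did not pass the test. MAD2L2, a relative of MAD2L1 that acts in DNA repair, was at a log2 fold change of -1.17 (standard error 0.27, edgeR adjusted p = 0.0355) and did not pass the threshold either.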
